A study of Mus musculus with 2 samples.

Results

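Lhx6 interneurons are the cells described here: GABAergic neurons of the embryonic mouse midline that carry transcripts of Lhx6, a LIM homeodomain factor that medial ganglionic cells switch on as they leave the cycle. They were chosen by raw counts of unique molecular identifiers (UMIs, single captured transcripts), among cells with at least 3350 UMIs, at least 500 detected genes and at most 10% mitochondrial UMIs. A cell was selected on at least 2 Lhx6 UMIs, no Lhx8 UMI, at least 1 UMI of Gad1 and Gad2 together and at most 1 Neurod2 UMI. The rule found 157 of 19630 cells, which were 58 of 8964 in the wild-type library and 99 of 10666 in the mutant library.

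The cells came from tissue at the corticoseptal boundary, where the callosal midline borders the septum, taken from E16.5 mouse embryos. One library was wild type (WT). The other was Tcf4f/f;Emx1Cre, called Tcf4 cKO or cKO here, with both floxed copies of Tcf4 and an Emx1-driven Cre, which acts in dorsal telencephalic progenitors and their offspring. Each genotype is 1 droplet library of 3' tags, the labels do not give the number of embryos, and no batch, litter or sex is stated, so genotype, embryo and library cannot be told apart. Cells are not replicates, so no p-value is given and every interval is a 95% interval of counting error only.

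Interneurons of the cerebral cortex are born in the ventral telencephalon, outside the dorsal territory in which Emx1-Cre acts, and reach the pallium by tangential migration. In the medial ganglionic eminence Nkx2-1 switches on Lhx6, and cells bound for the cortex then lower Nkx2-1 while those that stay in the ventral forebrain may keep it, often together with Lhx8. Lhx6 acts upstream of Sox6, Satb1 and Maf, factors of the later somatostatin and parvalbumin interneurons, and of the receptors that guide migration. Tcf4 encodes an E protein, a class I basic helix-loop-helix factor that binds E-box sequences as a homodimer or with a tissue-specific partner.

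Sequence before the start of 4 genes that the results turn on is shown from RefSeq on build GRCm38.p6, 5' to 3' along the gene. Lhx6 defines the cells, Sst and Npy are the neuropeptide genes that mark some of them, and Cck is the peptide gene with the lowest cKO level relative to WT among them. Capitals mark the E-box motifs CAGCTG and CAGGTG, searched on both strands, and the cyclic AMP response element TGACGTCA, which reads the same on both strands. The windows are chr2:36105409-36105658, chr16:23890874-23890903, chr6:49822460-49822709 and chr9:121495695-121495944, on the minus strand except for Npy, and are the 250 bases before the first base of the gene, or 30 bases around the motif for Sst.
Lhx6: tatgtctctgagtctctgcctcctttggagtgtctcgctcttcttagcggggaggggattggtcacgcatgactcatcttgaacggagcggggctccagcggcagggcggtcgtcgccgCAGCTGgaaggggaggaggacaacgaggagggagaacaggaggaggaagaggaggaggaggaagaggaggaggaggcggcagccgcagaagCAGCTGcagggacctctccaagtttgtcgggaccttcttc
Sst: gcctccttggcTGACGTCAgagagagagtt
Npy: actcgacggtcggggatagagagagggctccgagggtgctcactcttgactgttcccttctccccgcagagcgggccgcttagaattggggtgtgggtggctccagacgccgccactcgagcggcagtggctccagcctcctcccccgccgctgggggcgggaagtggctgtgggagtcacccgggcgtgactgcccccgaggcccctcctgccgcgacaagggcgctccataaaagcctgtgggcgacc
Cck: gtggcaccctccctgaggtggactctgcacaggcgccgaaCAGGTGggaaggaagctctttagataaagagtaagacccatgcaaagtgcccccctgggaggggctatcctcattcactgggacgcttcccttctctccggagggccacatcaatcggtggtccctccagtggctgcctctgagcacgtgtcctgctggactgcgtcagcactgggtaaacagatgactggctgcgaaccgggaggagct
The Lhx6 window, before the furthest upstream of its 3 starts in the table, held 2 E-boxes that began 131 and 40 bases before the start. The Cck window held 1, which began 210 bases before the start, and the Npy window held neither motif. The Sst element began 48 bases before the start. Among 32851 promoters of the same table, 27.7% held an E-box of these forms within 250 bases and 1.55% held the cyclic AMP response element, so an E-box there is common. These matches are letters, not measured binding.

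Levels are given as CPM, the UMIs of a gene over all UMIs of the summed cells, scaled to a total of 1000000. The 58 WT cells summed to 473285 UMIs and the 99 cKO cells to 763821, so that 1 UMI was worth 2.11 and 1.31 CPM, and their median depths of 6430 and 6691 UMIs per cell were close. The comparison cells were 2550 WT and 2697 cKO cells with at least 2 Gad1 and Gad2 UMIs that did not meet the rule (other Gad cells). Lhx8 cells (382 and 722, with at least 2 Lhx8 UMIs, a Gad UMI and at most 1 Neurod2 UMI) were the nearest group, and overlap the other Gad cells. Glutamatergic reference cells (1799 and 3011, with at least 3 Neurod2 UMIs and no Gad UMI) served as cells that should lack interneuron genes. No barcode of an Lhx6 interneuron was shared between the libraries, of 23 barcodes that all cells shared, and a doublet caller marked 3 of the WT and 6 of the cKO cells, 5 of the latter without a Maf UMI.

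The 5 genes of the rule are a description of the choice. The level of Lhx6 was 412 CPM for WT (356 to 474) and 439 CPM for cKO (393 to 488) in the selected cells, 34.0 and 61.1 CPM in other Gad cells and 248 and 237 CPM in Lhx8 cells. Gad1 and Gad2, the GABA-synthesizing enzymes, were at 142 and 161 CPM and 384 and 374 CPM, close to the 119.9 and 130.1 CPM and 361 and 341 CPM of other Gad cells. Neurod2, a factor of glutamatergic neurons, had 0 UMIs in WT and 5 in cKO. Just inside the Lhx6 limit were 25 WT and 42 cKO cells with exactly 2 Lhx6 UMIs, and just outside it 51 and 87 cells with exactly 1. A further 17 and 43 cells missed the rule by a single Lhx8 UMI, and 208 and 338 by 2 or more, so most Gad cells with 2 or more Lhx6 UMIs in this tissue also carried Lhx8.

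The label of medial ganglionic type was checked on Nkx2-1, the marker that the rule did not use, and on the wider list of that eminence's factors. Nkx2-1 was at 42.3 CPM for WT (25.8 to 65.3) and 74.6 CPM for cKO (56.5 to 96.7) in Lhx6 interneurons. That is lower than the 71.1 and 112 CPM of other Gad cells and the 304 and 399 CPM of Lhx8 cells, and it was detected in 6 of 58 and 18 of 99 cells. In WT 1 cell held 14 of the 20 Nkx2-1 UMIs, and without the top cell of each library the levels were 13.1 and 66.0 CPM. The marker thus does not bear out the label. Because medial ganglionic cells bound for the cortex lower Nkx2-1, its low level cannot decide the type. The cells are named here after Lhx6 alone. The later factors downstream of Lhx6 were high instead. Of 20 medial ganglionic factors compared with other Gad cells, 10 were at least 1.5-fold higher in both libraries and 1, Dlx6, was lower, against 3.19% higher and 4.9% lower among all 13370 genes compared. The list's median log2 ratio was 0.75 in WT and 0.68 in cKO, beside −0.06 and −0.02 for all genes. Since Lhx6 chose the cells and these genes follow it, the contrast is no test.

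Maf, a large Maf transcription factor of somatostatin and parvalbumin interneurons, stood out first. Its level was 744 CPM for WT (668 to 826) and 589 CPM for cKO (536 to 646) in Lhx6 interneurons against 25 and 18.6 CPM in other Gad cells, a ratio of 29.7-fold in WT (26.0 to 33.9) and 31.6-fold in cKO (27.8 to 36.1). Sox6, which positions these interneurons and lets them mature, was at 161 CPM (WT) and 224 CPM (cKO), 4.10 and 4.16 times the other Gad level, and the chromatin organiser Satb1 at 230.3 CPM (WT) and 232 CPM (cKO), 3.55 and 3.14 times. Maf, Sox6 and Satb1 were also higher than in Lhx8 cells, the comparison group nearest in Lhx6, with Maf at 16.2 and 9.65 CPM and Sox6 at 91.0 and 129 CPM there. In the 17 WT cells that missed the rule by a single Lhx8 UMI, Sox6 was at 299 CPM (217 to 403), above the Lhx6 interneurons. Maf and Satb1 were lower in those 17 cells, at 6.96 and 111 CPM. High Sox6 is therefore not called particular to Lhx6 interneurons. Mef2c, a factor that acts in parvalbumin precursors, was at 742 CPM (WT) and 831 CPM (cKO), against 53.9 and 126 CPM in other Gad cells. Zeb2, Npas1, Tcf12 and Nr2f1 were also above the limit, while the general GABAergic factors Dlx1, Dlx2 and Dlx5 were not (Dlx1 328 and 295 CPM against 452 and 409 CPM).

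**Figure D1:**
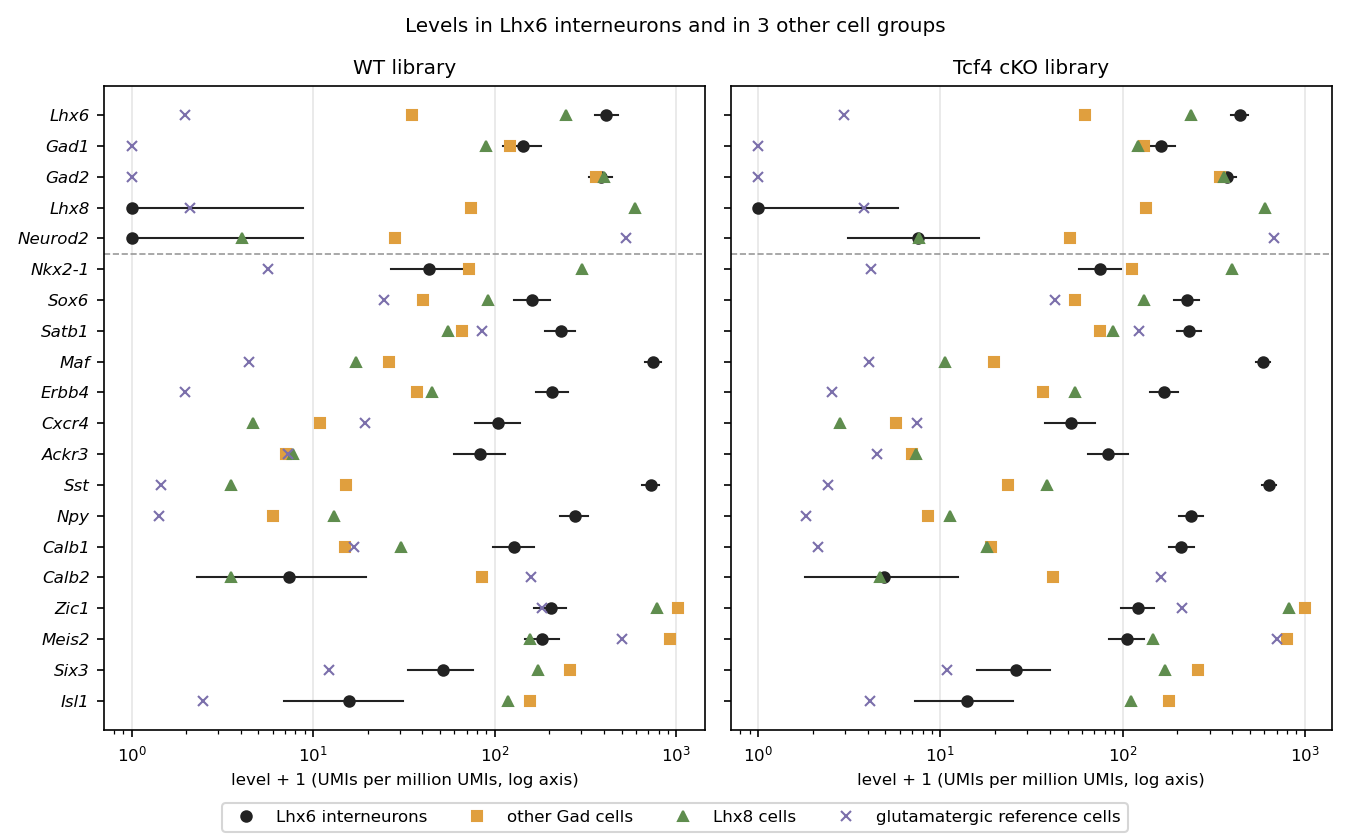
Levels of 20 genes in the WT library (left) and the Tcf4 cKO library (right), as CPM plus 1 on a log axis; black circles are Lhx6 interneurons with their 95% counting interval, and the other symbols are other Gad cells, Lhx8 cells and glutamatergic reference cells. The 5 genes above the dashed line chose the cells; below it, Sox6, Satb1, Maf, Sst and Npy lie to the right of the 3 other groups in both libraries, while Nkx2-1 and Zic1 lie to the left of other Gad and Lhx8 cells.

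Genes of the mature subtypes were already present. Sst, the somatostatin peptide, was at 723 CPM for WT (648 to 803) and 634 CPM for cKO (578 to 693), against 14.2 and 22.5 CPM in other Gad cells, 2.52 and 37.4 CPM in Lhx8 cells and 0.457 and 1.41 CPM in the glutamatergic reference. Npy, neuropeptide Y, was at 275 CPM for WT (229.5 to 326) and 237 CPM for cKO (204 to 274), against 5.01 and 7.51 CPM in other Gad cells. Both peptides were therefore far above the level of free RNA, which was 23.1 and 51.5 CPM for Sst and 21.4 and 18.7 CPM for Npy in droplets of 10 to 100 UMIs. Calb1, the calcium-binding protein calbindin, was at 127 CPM (WT) and 209.5 CPM (cKO), against 14.1 and 18.1 CPM. Nxph1, a neurexin ligand of interneurons, was at 237 CPM (WT) and 225 CPM (cKO), 8.61 and 5.78 times the other Gad level, and its relative Nxph2 at 40.1 CPM (WT) and 49.8 CPM (cKO), against 0.841 and 1.3 CPM. Of 22 subtype genes compared, 9 were higher and 2 lower, beside 3.19% higher and 4.9% lower among all genes compared. The 2 lower ones were Cdh13 and Calb2, calretinin, at 6.34 CPM (WT) and 3.93 CPM (cKO) against 83.9 and 40.5 CPM. Pvalb and Vip, the markers of fast-spiking and of caudally derived interneurons, had no UMI in any of the 58 or 99 cells, which allows at most 6.34 and 3.93 CPM from a count of 0.

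Receptors of tangential migration were the next group. Cxcr4, the receptor for the chemokine that guides interneurons along their migratory streams, was at 104 CPM for WT (76.6 to 137) and 51.1 CPM for cKO (36.3 to 69.8), against 9.86 and 4.73 CPM in other Gad cells. Its partner Ackr3, which takes up the same chemokine, was at 82.4 CPM (WT) and 82.5 CPM (cKO), 13.5 and 13.8 times the other Gad level. Erbb4, the neuregulin receptor of migrating interneurons, was at 207 CPM (WT) and 168 CPM (cKO), against 36.2 and 35.6 CPM. Epha5, an ephrin receptor, reached 1069 and 1025 CPM against 223 and 219 CPM. Of 36 migration and guidance genes, 9 were higher and 4 were lower, beside 3.19% higher and 4.9% lower among all genes compared. The list's median log2 ratio of −0.03 in WT and −0.05 in cKO lay beside that of all genes, so the list as a whole was not raised. The 4 lower genes were Ephb1, Efna5, Dcc and Gfra1.

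Transmitter and excitability genes followed. Their counts stand beside 3.19% higher and 4.9% lower among all genes compared. Of 20 genes of GABA synthesis, transport and receptors other than Gad1 and Gad2, 2 were higher and 1 was lower. The lower count is near the share of all genes. The receptor subunit gene Gabrb2 was among the higher ones, at 12.7 CPM (WT) and 17 CPM (cKO), against 4.97 and 7.43 CPM in other Gad cells. At 2.11 and 1.31 CPM per UMI, its levels in Lhx6 interneurons rest on few UMIs. Abat, the GABA-degrading enzyme, was the lower one, at 38.0 CPM (WT) and 34.0 CPM (cKO) against 67.1 and 64.9 CPM. Of 35 excitability and synapse genes 10 were higher and 3 lower, with a median log2 ratio of 0.27 in each library. The higher ones include the glutamate receptor subunits Gria1, 376 and 271 CPM against 53.2 and 69.4 CPM, and Gria4, 95.1 and 118 CPM against 20.5 and 23.7 CPM.

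The factors of other ventral territories were low. Of 25 lateral, caudal and septal factors compared, 13 were lower in Lhx6 interneurons and only Tshz1 was higher, with a median log2 ratio of −1.55 in WT and −1.20 in cKO. Among all genes compared 3.19% were higher and 4.9% lower. Zic1, a septal and midline zinc-finger factor, was at 203 CPM (WT) and 120.4 CPM (cKO) against 1024 and 998 CPM in other Gad cells. Meis2, a factor of the lateral eminence, was at 182 and 104.7 CPM against 921 and 798 CPM. Isl1, a striatal projection-neuron factor, was at 14.8 and 13.1 CPM against 156 and 179.6 CPM, and Six3 at 50.7 and 24.9 CPM against 259 and 259 CPM. Gnrh1, the reproductive releasing hormone, had 1 UMI in WT and 2 in cKO here, against 136 and 168 CPM in other Gad cells. The further genes named by the ranking were Neb, Cck, Dgkg, Thbs1, Npas1, Neto1, Cux2 and Gucy1a1 on the higher side, and Ebf1, Zic2, Zic4, Zic5, Fgf15, Clybl and Islr2 on the lower. Among these Neb, a gene known for the muscle thin filament, was at 216 CPM (WT) and 145 CPM (cKO) against 4.97 and 4.46 CPM in other Gad cells.

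Detection was uneven among the cells. Maf was detected in 49 of 58 and 66 of 99 cells, Satb1 in 42 of 58 and 70 of 99, Sox6 in 34 of 58 and 68 of 99 and Erbb4 in 44 of 58 and 55 of 99. Sst was detected in 16 of 58 cells in WT (27.6%, 16.7 to 40.9) and in 28 of 99 in cKO (28.3%, 19.7 to 38.2), and Npy in 20 of 58 (34.5%, 22.5 to 48.1) and 28 of 99 (28.3%, 19.7 to 38.2). In the glutamatergic reference, with deeper medians of 10798 and 8571 UMIs, the shares with a UMI were 0.556% and 1.36% for Sst and 0.50% and 0.731% for Npy. After thinning every cell to 3350 UMIs, which left out no cell, the expected shares of Lhx6 interneurons with Sst were 24.1% and 24%. The peptide UMIs were concentrated: 1 WT cell held 127 of the 342 Sst UMIs and 1 cKO cell 103 of 484. Without these cells Sst was at 464 CPM and 503 CPM, so the order of the libraries turned.

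Sst and Npy partly marked the same cells. In WT 8 of the 16 Sst cells had an Npy UMI, and in cKO 13 of 28. Npy stood at 711 CPM in WT cells with an Sst UMI and at 95.4 CPM in those without one, and at 742 and 60.1 CPM in cKO. Calb1 was lower with Sst, at 36.3 CPM with and 164 CPM without in WT, and at 111 and 244 CPM in cKO, although in WT it was detected in a like share of both, 4 of 16 and 10 of 42 cells. Cells that kept Nkx2-1 were set apart in other genes. Maf was detected in 2 of the 6 WT cells with an Nkx2-1 UMI and in 47 of the 52 without, and in cKO in 4 of 18 and in 62 of 81. Calb1 was at 278 CPM with Nkx2-1 and 107 CPM without in WT, and at 582 and 124 CPM in cKO.

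**Figure D2:**
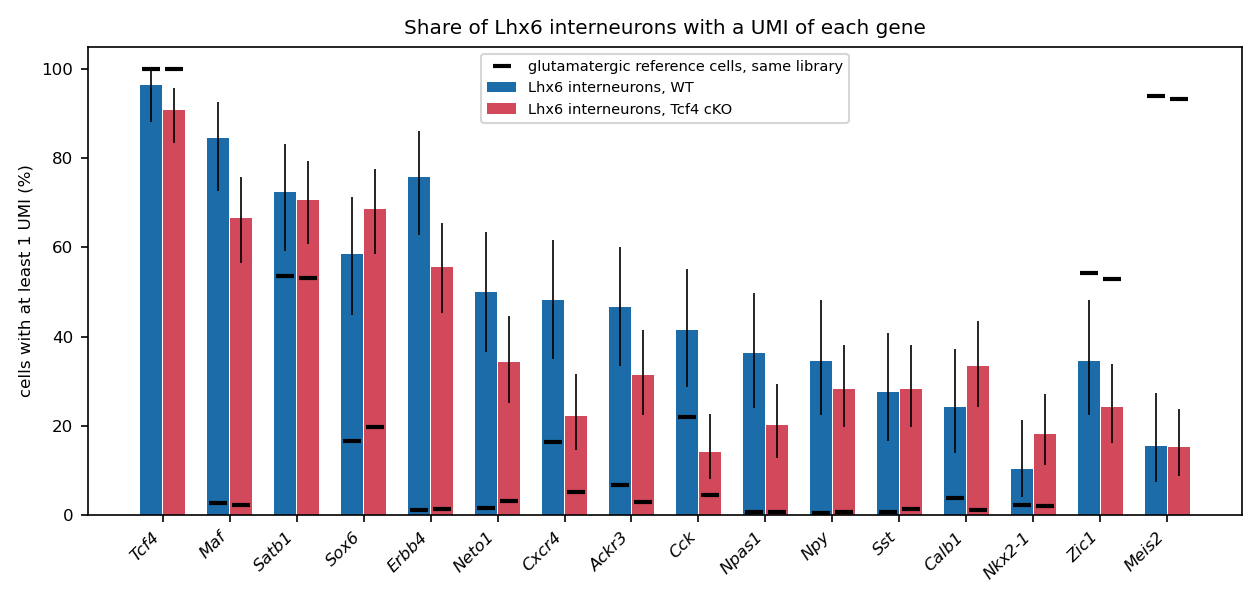
Share of Lhx6 interneurons with at least 1 UMI of each of 16 genes in WT (blue, 58 cells) and Tcf4 cKO (red, 99 cells), as percent of cells; lines are exact 95% binomial intervals and black dashes are the share in glutamatergic reference cells of the same library, which are deeper. Maf was detected in 84.5% of WT and 66.7% of cKO cells and Cck in 41.4% and 14.1%, while Sst was detected in 27.6% and 28.3%.

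The cells were also divided by Maf, a split chosen after its values were seen. In WT 49 of 58 cells had a Maf UMI (84.5%, 72.6 to 92.7), and in cKO 66 of 99 (66.7%, 56.5 to 75.8). Thinned to 3350 UMIs the expected shares were 78.2% and 59.5%. The share was lower in cKO in each way of choosing cells that was tried, with 67.6% to 90.4% of cells in WT and 51.0% to 76.5% in cKO. Cells without Maf were not shallower, with median depths of 8268 and 8048 UMIs against 6386 and 6464 in those with it.

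Cells with and without Maf differed in named factors and peptides. Among 4105 genes that could be compared, 6.38% were at least 1.5-fold higher in both libraries in cells with Maf and 3.51% were lower. Of 19 medial ganglionic factors 6 were higher with Maf and none was lower, of 8 subtype genes 5 were higher and none lower, and of 20 migration genes 8 were higher and 4 lower. Median log2 ratios for all genes were 0.08 in WT and 0.06 in cKO. The medial ganglionic list stood at 0.07 and 0.80, so in WT, with 9 cells without Maf, it was not raised as a whole. Subtype genes stood at 0.98 and 1.79 and migration genes at 0.31 and 0.56. Of 6 lateral, caudal and septal factors 1 was higher, Tshz1, and 3 were lower. Mef2c was at 896 and 1206 CPM with Maf and 68.1 and 293 CPM without it. Zeb2, a zinc-finger factor that directs interneurons to the cortex, was at 901 and 1175 CPM with Maf and 182 and 95.6 CPM without, a ratio of 4.96-fold in WT (3.01 to 8.78) and 12.3-fold in cKO (8.51 to 18.4). Sst was 4.37-fold in WT (2.69 to 7.60) and 3.80-fold in cKO (2.96 to 4.93) higher with Maf, and Npy was at 335 and 378 CPM with Maf against 11.3 and 35.1 CPM. Neb, Tshz1 and Cck had no UMI in the 9 WT cells without Maf, and 1, 1 and 0 UMIs in the 33 such cKO cells, while in cells with Maf they stood at 265 and 244 CPM, 226 and 247 CPM and 234 and 73.3 CPM. Cux2, Gria1, Epha5 and Ankrd50 were the other named genes on this side.

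Cells without Maf had more of a different set than cells with it. Gap43, a growth-cone protein, was at 1374 and 1138 CPM without Maf and 187 and 242 CPM with it, 7.35-fold in WT (5.44 to 9.98) and 4.70-fold in cKO (3.78 to 5.88) higher without. The vesicle protein Syt4 was at 829 and 386 CPM without Maf against 122 and 91.1 CPM with it. Zfhx3, a homeodomain and zinc-finger factor, was at 261 and 220.0 CPM against 54.5 and 53.3 CPM, and the intermediate filament gene Nefm at 182 and 676 CPM against 31.1 and 104 CPM. Lhx6 itself, which the rule required, was lower without Maf in both libraries, with 306 and 376 CPM without and 436 and 482 CPM with Maf. Isoc1, Top2a, Nrgn, Enc1, Hap1, Hmgb2, Mest and Ddah1 were also named here. Several lean on single cells, such as Nrgn with 21 of 23 UMIs in 1 WT cell and Top2a with 32 of 59. The set is not particular to these cells as a whole. In other Gad cells without Lhx6 or Maf UMIs, Zfhx3 was at 527 (WT) and 528 CPM (cKO), above Lhx6 interneurons with or without Maf. Gap43 was at 615 and 715 CPM in those Gad cells, between the levels with and without Maf. Syt4, at 62.5 and 77.3 CPM, and Nefm, at 85.6 and 74.4 CPM, were lower there than in Lhx6 interneurons without Maf.

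The same division was looked for in cells that the rule had left out, those with exactly 1 Lhx6 UMI. Of these, 28 WT cells had Maf and 23 did not, and 32 and 55 in cKO. All 12 genes named as higher with Maf were more than 1.5-fold higher there too, in each library. Of the 12 named as higher without Maf, 9 in WT and 7 in cKO were past 1.5-fold, and 10 kept that direction in each library. The exceptions to the direction were Isoc1 and Syt4 in WT and Isoc1 and Ddah1 in cKO. These genes had been chosen by the same split in the same 2 libraries, and the share over all genes was not computed. The counts are therefore a description and no test. With Maf, Sst was at 673 and 283 CPM in the WT and cKO libraries; without Maf it had no UMI in either.

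Tcf4, the targeted gene, followed Maf. Its level in Lhx6 interneurons was 2352 CPM for WT (2216 to 2494) and 1918 CPM for cKO (1821 to 2019), a cKO to WT ratio of 0.816 (0.754 to 0.882). Both levels were above the 729 and 644 CPM of other Gad cells, while the glutamatergic reference was at 2694 and 1815 CPM. Cells with Maf had 2783 CPM for WT (2619 to 2955) and 2861 CPM for cKO (2707 to 3022), and cells without it 465 CPM for WT (334 to 631) and 564 CPM for cKO (484 to 654). Within cells with Maf the cKO to WT ratio was 1.03 (0.947 to 1.12), and within cells without it 1.21 (0.859 to 1.75), so that neither ratio was below 1. The share of cells with Maf was also lower in cKO, and they held 58.9% of the UMIs there against 81.4% in WT. With the 2 cKO levels weighted by the WT shares of UMIs, Tcf4 in cKO came to 2434 CPM, a ratio of 1.03 to WT. This weighting has no interval and uses a split chosen after the data were seen. The part of the share in the Tcf4 difference was not tested. The labels do not name the floxed exon and a 3' tag may lie outside it, so these levels check neither recombination nor protein.

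Per cell the groups overlapped little in WT and more in cKO. The 49 WT cells with Maf ranged from 1053 to 6114 CPM of Tcf4 with a median of 2693, and the 9 without it from 0 to 1434 with a median of 338. In cKO the 66 cells with Maf ranged from 0 to 6202 CPM with a median of 2835, and the 33 without it from 0 to 1771 with a median of 254. Above 1000 CPM lay all 49 WT and 59 of 66 cKO cells with Maf, and 1 of 9 and 7 of 33 without it. Cells with exactly 1 Lhx6 UMI showed the order again, with 2053 and 1702 CPM with Maf and 689 and 614 CPM without. In other Gad cells without any Lhx6 UMI the gap was smaller, with 1123 and 1119 CPM in 97 and 54 cells with 2 or more Maf UMIs and 691 and 565 CPM in 2038 and 1998 cells without Maf. In Lhx8 cells Tcf4 was at 792 and 807 CPM with Maf (21 and 36 cells) and 476 and 634 CPM without (361 and 686 cells). Sst was not higher with Maf there, with 0 and 1 UMIs with Maf against 9 and 224 without, or 0 and 2.92 CPM against 2.71 and 39.5 CPM. The relation is one between transcripts of the same cells and its direction of action was not tested.

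**Figure D3:**
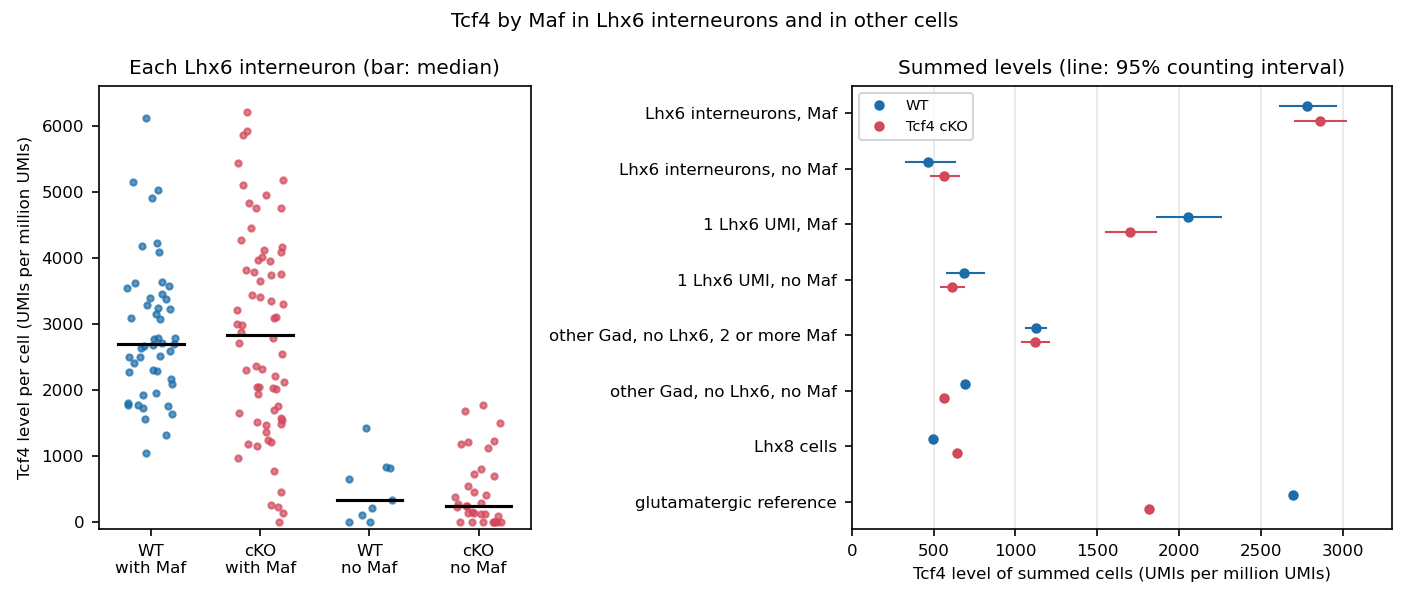
Left, Tcf4 level of each Lhx6 interneuron in CPM, by library and by whether the cell had a Maf UMI, with the median as a bar. Right, Tcf4 level of summed cells in WT (blue) and Tcf4 cKO (red) for 8 cell groups, with 95% counting intervals where drawn. Tcf4 was at 2783 and 2861 CPM in Lhx6 interneurons with Maf and at 465 and 564 CPM in those without.

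Between the genotypes, Lhx6 interneurons made up a larger share of the cKO library, 0.928% of cells (0.755 to 1.13) against 0.647% (0.492 to 0.836) in WT. As a share of cells with 2 or more Gad UMIs they were 3.13% (2.51 to 3.84) and 2.07% (1.56 to 2.70). The intervals overlap and cover counting error only. With 1 dissected sample each, a difference of this size cannot be told apart from a difference in dissection. The larger share was not particular to these cells. Lhx8 cells were 6.77% of cells in cKO and 4.26% in WT, and cells with exactly 1 Lhx6 UMI 0.816% and 0.569%. Other Gad cells went the other way, with 25.3% in cKO and 28.4% in WT.

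Across 7258 genes with at least 20 UMIs in the cells of both libraries together, 8.65% were at least 1.5-fold higher in cKO and 6.13% were lower. The sums are small, and with at least 100 UMIs required only 50 genes of 2425 were higher and 43 lower. Of the 24 genes named by the size of the difference after counting error, 4 lower ones are given first, beside their values in other Gad cells; the difference between the groups was not tested. Neto1, an auxiliary subunit of kainate receptors and an interneuron gene here, was at 273 CPM for WT (228 to 324) and 120.4 CPM for cKO (97.1 to 148), a ratio of 0.442 (0.335 to 0.582), while other Gad cells were at 9.37 and 11.2 CPM. Zfp536, a zinc-finger repressor of neuronal differentiation, was at 179.6 CPM (WT) and 86.4 CPM (cKO), against 75 and 75.8 CPM in other Gad cells. Trpc4, a cation channel, was at 71.8 CPM (WT) and 22.3 CPM (cKO), a ratio of 0.310 (0.162 to 0.570) beside 0.992 (0.931 to 1.06) in other Gad cells, and Celsr2, a planar polarity cadherin, at 101 CPM (WT) and 39.3 CPM (cKO), a ratio of 0.387 (0.237 to 0.624) beside 0.818 (0.769 to 0.869). These 4 remained lower within cells with Maf, at ratios of 0.638 (0.479 to 0.848) for Neto1, 0.554 (0.387 to 0.786) for Zfp536, 0.374 (0.185 to 0.722) for Trpc4 and 0.438 (0.246 to 0.759) for Celsr2. That does not set them apart, since all 24 named genes kept their direction there and 21 stayed past 1.5-fold. Of the 1073 genes past 1.5-fold in all Lhx6 interneurons, 69.6% stayed so. Cells with Maf are most of the same cells, so this is no test.

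On the higher side Colec12 ranked first, followed by Nefl and Nefm, the light and medium neurofilament subunits. Nefl had 4 UMIs in WT and 136 in cKO (8.45 and 178 CPM), in 4 of 58 and 18 of 99 cells, and 44 of the 136 were in 1 cell. Nefm was at 59.2 CPM for WT (39.3 to 85.5) and 339 CPM for cKO (299 to 383), a ratio of 5.73 (3.87 to 8.80), with 71 of 259 cKO UMIs in 1 cell. In other Gad cells the ratios were 1.16 (1.07 to 1.24) for Nefl and 1.24 (1.17 to 1.31) for Nefm. Nefm was also higher in cKO in Lhx8 cells, at 81.2 (WT) and 173 CPM (cKO) without Maf and 8.16 and 40.8 CPM with it. A higher Nefm in cKO is thus not called particular to Lhx6 interneurons. Cells with exactly 1 Lhx6 UMI went the other way, at 335 and 101 CPM without Maf and 37.9 and 30.6 CPM with it. Among Lhx6 interneurons, most of the cKO UMIs lay in cells without Maf, 117 of 136 for Nefl and 212 of 259 for Nefm. Within cells with Maf the Nefm ratio was 3.35 (1.75 to 6.94). Nap1l5, an imprinted nucleosome-assembly relative, was at 109.9 CPM (WT) and 295 CPM (cKO), but at 83.1 and 88.9 CPM within cells with Maf, a ratio of 1.07 (0.655 to 1.76). Pdzrn4 and Vstm2a were spread over more cells. They were among the 10 of 12 higher named genes that were past 1.5-fold within cells with Maf too. Pdzrn4, a PDZ and RING domain protein, was at 40.1 CPM (WT) and 101 CPM (cKO) in 7 of 58 and 38 of 99 cells, with a ratio of 2.14 (1.21 to 3.93) within cells with Maf, and Vstm2a at 40.1 CPM (WT) and 99.5 CPM (cKO) in 14 of 58 and 32 of 99 cells, with 2.40 (1.30 to 4.65). Uchl1, a neuronal ubiquitin hydrolase, was at 292 CPM (WT) and 537 CPM (cKO), against 639 and 679.6 CPM in other Gad cells and 576 and 535 CPM in free RNA. The further higher genes were Peg10, Tshz2, Pou3f1, Ntm and Tmem130.

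Colec12 and Cck differed the same way in other Gad cells, in the glutamatergic reference and in free RNA, so neither is called particular to these cells. Colec12, a scavenger receptor of the collectin family, had 1 UMI in WT and 81 in cKO Lhx6 interneurons, in 1 of 58 and 52 of 99 cells. It was at 3.59 and 97.1 CPM in other Gad cells and 0.822 and 101 CPM in the glutamatergic reference, and at 6.59 and 59.6 CPM in free RNA. Cck, cholecystokinin, was at 190.2 CPM for WT (153 to 234) and 43.2 CPM for cKO (29.7 to 60.7), 4.40-fold (2.92 to 6.77) lower in cKO, and detected in 24 of 58 and 14 of 99 cells. In other Gad cells Cck was at 8.87 and 2.27 CPM, in the glutamatergic reference at 109.5 and 6.41 CPM and in free RNA at 62.6 and 8.73 CPM. Its cKO to WT ratio in cells with Maf was 0.314 (0.204 to 0.472). In Lhx8 cells Cck was near 0, at 1.12 and 0.832 CPM. The part of free RNA in the Colec12 and Cck differences was not tested.

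**Figure D4:**
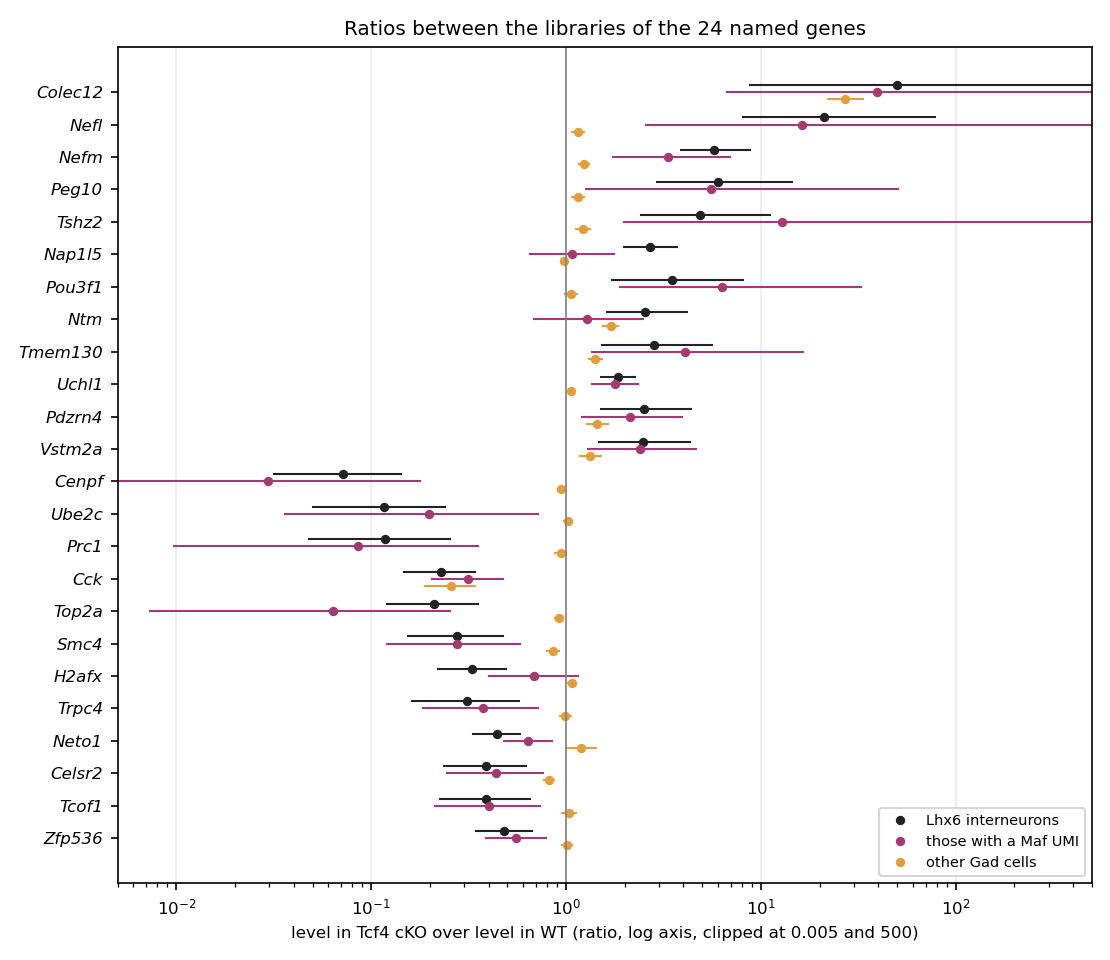
Ratio of the level in Tcf4 cKO to that in WT, on a log axis, for the 24 genes named in Lhx6 interneurons; black is all 58 and 99 of these cells, purple those with a Maf UMI and orange other Gad cells, with 95% counting intervals (lines that reach the frame go on beyond it). Colec12 and Cck depart from 1 in other Gad cells as well, while Neto1, Trpc4 and Zfp536 lie near 1 there; Nap1l5 and Ntm move towards 1 in cells with Maf.

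The migration receptors that set Lhx6 interneurons apart did not move together. Cxcr4 was lower in cKO, at a ratio of 0.493 (0.315 to 0.767), and its ratio was 0.480 (0.384 to 0.598) in other Gad cells and 0.353 in the glutamatergic reference. Within cells with Maf the Cxcr4 ratio was 0.726 (0.461 to 1.14). Ackr3 was at 82.4 CPM (WT) and 82.5 CPM (cKO) and Erbb4 had a ratio of 0.809 (0.617 to 1.06). Of 28 migration genes with enough UMIs 4 were higher in cKO (Nrp2, Efnb3, Rnd2 and Robo1) and 3 lower (Cxcr4, Ntrk2 and Efna5), with a median log2 ratio of −0.03 beside 0.01 for all genes. Among all genes 8.65% were higher and 6.13% lower.

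The counts that follow stand beside 8.65% higher and 6.13% lower among all genes. Of 21 medial ganglionic factors 2 were higher in cKO, Lmo4 and Nkx2-1, and 2 lower, Npas1 and Nr2f1, with a median log2 ratio of −0.08. These shares are near those of all genes. Nr2f1, an orphan nuclear receptor, was at 243 CPM for WT (201 to 292) and 135 CPM for cKO (110.1 to 164), and Npas1, a basic helix-loop-helix PAS factor of interneurons, at 112 CPM (WT) and 60.2 CPM (cKO). Among 5958 genes compared within cells with Maf, 8.39% were higher in cKO and 8.01% lower, and of that list Sox6 alone was past 1.5-fold, at a ratio of 1.54 (1.12 to 2.15). Sst and Npy had ratios of 0.877 (0.762 to 1.01) and 0.863 (0.685 to 1.09) in all cells. In those with Maf the ratios were 1.08 and 1.13, and both intervals included 1. Of 13 subtype genes 2 were higher (Calb1 and Kit) and 2 lower (Elfn1 and Cck). Of 10 E proteins and Id factors only Id4, an inhibitor of E proteins, passed, lower at 84.5 CPM (WT) and 30.1 CPM (cKO). Tcf12, an E protein related to Tcf4, was at 311 CPM (WT) and 230.4 CPM (cKO), and Tcf3 at 50.7 CPM (WT) and 56.3 CPM (cKO). Of 17 lateral, caudal and septal factors 4 were higher and 6 lower, including Zic1 at a ratio of 0.594 (0.441 to 0.799). Of 29 excitability genes 7 were higher and 1 lower.

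The lowest ratios belonged to cell-cycle genes and rested on a handful of cells. All 9 G2 and M phase genes with enough UMIs were lower in cKO, such as Cenpf with 78 UMIs in WT and 9 in cKO and Top2a with 59 and 20. The list summed to 427 UMIs in WT, of which 249 and 125 lay in 2 cells, and to 91 in cKO, of which 60 lay in 1, and 37 of 58 and 72 of 99 cells had none. Without the 4 WT and 1 cKO cells that held 10 or more of these UMIs the list stood at 51.1 and 41.8 CPM. With the cells that held 10 or more UMIs of the cycle or of another cell type left out, the log2 ratios of Ube2c, Prc1, Top2a and H2afx turned to 1.38, 0.972, 0.0613 and 0.327. Smc4 was the other named gene of mitosis, and Tcof1, a nucleolar factor of ribosome synthesis, was at 84.5 CPM (WT) and 32.7 CPM (cKO) in 28 of 58 and 20 of 99 cells.

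Transcripts of other cell types were present in some of the cells. The 10 astroglia markers summed to 1411 and 778 CPM in the WT and cKO cells, with 598 of 668 UMIs in 8 WT cells and 454 of 594 in 6 cKO cells, and to 198 and 209 CPM without those. Red-cell genes summed to 180 and 983 CPM, but 640 of the 751 cKO UMIs were in 1 cell. Glutamatergic markers summed to 21.1 and 77.2 CPM, against 3002 and 3357 in the glutamatergic reference. Intermediate progenitor markers summed to 59.2 and 216 CPM, with 121 of the 165 cKO UMIs in 4 cells and 62.5 CPM without those. Microglial markers had no UMI in either library, and the 7 endothelial and mural markers summed to 6.34 and 2.62 CPM. The part of these cells in other differences was tried by leaving out the members with 10 or more UMIs of such a list, which left 49 WT and 89 cKO cells.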

How the data were processed

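The data are 2 droplet libraries, 1 per genotype. The deposited values are whole UMI counts per gene and barcode for all 32285 features, made by the authors with Cell Ranger. The file headers give version 7.1.0 and the submitters' processing notes give version 2.1.1 and the genome build mm10. The libraries hold 2414768 and 1872751 barcodes and 116998498 and 121321247 UMIs, of which 84.7% and 84.0% lay in cells. From these counts, UMIs were summed over cells, scaled to CPM, and given with exact Poisson, conditional binomial or Clopper-Pearson intervals at 95%, which cover counting error only.

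Ratios count as past the limit at 1.5-fold after adding 5 CPM, over genes with at least 20 UMIs. Genes named between genotypes or against other Gad cells have at least 50 UMIs. They also have at least 30 CPM in the higher group and no less than in free RNA. Genes named by the Maf split needed only at least 20 UMIs in each library. The order of named genes follows whichever interval bound lies closest to 1, with 12 taken in each direction, without mitochondrial, ribosomal, haemoglobin and sex-linked genes. Members, lists and rules were chosen with earlier results of these data known, and the Maf split after its values were seen. A count of 0 allows up to 3. The rule removes no doublets, and scrublet calls in scanpy 1.11.5 were an alternative. Some genes are not reported here. Sums and ratios were tested on simulated data with independent Poisson counts. Such counts lack the clumping of UMIs in single cells seen here, so they cannot show how the intervals behave under it. Promoters came from RefSeq on GRCm38.p6. With 1 library per genotype no test between genotypes was possible.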

Additional observations from a re-analysis of the deposited data

Results flagged for a closer look

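Below the depth limit, among barcodes of 1000 to 3350 UMIs that pass the limits on genes and mitochondrial share, 4 of 567 in cKO met the gene terms for Lhx6, Lhx8, Gad1, Gad2 and Neurod2. That is more than the 3 that a count of 0 allows, and in WT 2 of 510 did so. They were not analysed further.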

How the results depend on the processing

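No paired analysis was possible because each genotype is 1 library. The share of Lhx6 interneurons was higher in cKO under each choice of cells tried. The difference in percent of cells was 0.528 points with at least 1 Lhx6 UMI, and in percent of Gad cells 2.18 points with other Gad cells limited to no Lhx8 and at most 1 Neurod2 UMI. The log2 ratio of Tcf4 between cKO and WT was −0.463 with the UMI minimum doubled and 0.04 in cells with Maf. Counts of genes past 1.5-fold depended on the limits. Higher in cKO were 409 genes with cells thinned before the choice, 270 with a pseudocount of 20 CPM, 1844 with no low-count filter and 50 with at least 100 UMIs per gene, and lower were 185, 1305 and 43 under the last 3. Against other Gad cells, 241 genes were higher and 195 lower with at least 1 Lhx6 UMI, 662 and 1522 with a pseudocount of 1 CPM and 200 and 201 with 20 CPM. Lower were 1124 among cells with Maf and 1211 without the cells that hold other lists; the cause was not tested. Of 384 repeats of the named cKO to WT ratios, 41 moved by more than the counting error of the main ratio and 8 reversed. With cells thinned before the choice, which left 34 and 66 cells, log2 ratios became 1.89 for Cenpf, Ube2c and Prc1 and 1.39 for H2afx. Without cells that hold 10 or more UMIs of the cycle or another cell type, they became 1.38 for Ube2c, 0.972 for Prc1, 0.0613 for Top2a and 0.327 for H2afx. Of 360 repeats of the named ratios to other Gad cells 116 moved by more than that error and none reversed. These genes were named for large ratios, so the lack of reversals says little. The Maf, list-holding and top-cell alternatives were added after seeing the data. At 1.31 to 2.11 CPM per UMI, genes under about 20 UMIs cannot be compared.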
